A study of Mus musculus with 11 samples.

Results

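The matricellular genes of the liver mesenchyme are described here across cell types and injuries. The 10 symbols were taken by name from the gene table of the droplet libraries, which lists 27998 genes, and each was found there once: the thrombospondin family members Thbs1, Thbs2, Thbs3, Thbs4 and Comp, tenascin C (Tnc), periostin (Postn), Sparc, its relative Sparcl1, and osteopontin (Spp1). The rule names them by family and uses no measured value, but the set was proposed with earlier results of these data known.

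All cells came from male C57BL/6 mice of 10 to 16 weeks that carry the Pdgfrb-BAC-eGFP transgene, in which the Pdgfrb regulatory region drives the fluorescent protein in mesenchymal cells, so cells with an inactive reporter were never sampled. Livers were uninjured, or injured by carbon tetrachloride (CCl4, a hepatocyte toxin given by injection into the abdomen, in olive oil) or by bile duct ligation (BDL, a surgical block of bile flow) for 14 days. CCl4 was given once with harvest 72 h later, or 2 times a week for 6 weeks with harvest 48 h after the last dose. GFP+ CD45- CD102- cells were sorted after either of 2 digestion protocols, labelled for portal fibroblasts (protocol 1) and for hepatic stellate cells (protocol 2). The 10X libraries, each 1 pool of 3 mice, were uninjured, CCl4 72 h and CCl4 6 weeks by protocol 2, and uninjured and CCl4 6 weeks by protocol 1. In the plate-based Smart-seq2 data, 6 plates held wells of uninjured, BDL and CCl4 6 weeks mice, and a portion is the set of wells that 1 mouse contributed to a plate. Levels below cover up to 6 uninjured, 5 BDL and 4 CCl4 portions of a class, of which the test used those of plates 1 to 5, leaving 5 uninjured ones.

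Matricellular proteins are secreted into the extracellular matrix, where they act on receptors, growth factors and other matrix proteins more than as structural fibres. Many are low in resting tissue and are made during wound repair and fibrosis. In the liver, hepatic stellate cells (HSCs, the vitamin A-storing pericytes of the sinusoid), portal fibroblasts (FBs) and vascular smooth muscle cells (VSMCs) are the mesenchymal cells that could make them.

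The trimeric thrombospondins are Thbs1 (ENSMUSG00000040152, chr2:118111876-118127133, plus strand), an activator of latent TGF-beta that binds Cd36 and Cd47, and Thbs2 (ENSMUSG00000023885, chr17:14665500-14694235, minus strand), which shapes collagen fibrils and restrains vessel growth. The pentameric thrombospondins are Thbs3 (ENSMUSG00000028047, chr3:89215180-89226837, plus strand), Thbs4 (ENSMUSG00000021702, chr13:92751590-92794818, minus strand), known from tendon and injured heart, and Comp (ENSMUSG00000031849, chr8:70373558-70382066, plus strand), the cartilage oligomeric matrix protein. Tnc (ENSMUSG00000028364, chr4:63959785-64047015, minus strand) is a large matrix glycoprotein of wound edges, and Postn (ENSMUSG00000027750, chr3:54361109-54391037, plus strand) binds integrins and promotes collagen cross-linking. Sparc (ENSMUSG00000018593, chr11:55394500-55423183, minus strand) binds collagen and assists its processing, and Sparcl1 (ENSMUSG00000029309, chr5:104079111-104113733, minus strand) is its relative best known from vessels. Spp1 (ENSMUSG00000029304, chr5:104435118-104441050, plus strand) is the secreted ligand of Cd44 and alpha-v integrins. These are positions of whole genes in the GENCODE annotation of GRCm38 (mm10).

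The 10X libraries kept 5454 to 7310 cells each and totalled 25965670 to 86664085 UMIs (unique molecular identifiers, each standing for 1 captured transcript), with medians of 4300 to 11344 UMIs per cell. In the Smart-seq2 plates, 2065 of 2292 wells passed the filters, with a median of 445569 reads per well. Cells and wells were clustered without the members and named from marker lists. HSC-like cells made up nearly all of protocol 2 (6850, 7148 and 5450 cells), and FB-like (4025 and 2622) and VSMC-like (1670 and 3002) cells nearly all of protocol 1. Different clusters held most HSC-like cells in each condition, namely A0, A3 and A9 in uninjured liver, A1, A2 and A11 at 6 weeks, and B0, B5, B9 and B10 at 72 h. Any 2 of the 10X libraries shared 33 to 74 cell barcodes. Summed hepatocyte markers were at 61.9 CPM (a gene's UMIs per 1000000 UMIs) in uninjured, 16.1 CPM in 72 h and 53.0 CPM in 6 weeks HSC-like cells and leucocyte markers 3.86 to 12.2 CPM in these cells, with Cd3e at 0 in all of them. The summed level of 9 immediate-early genes, which respond to tissue handling, was 12688 CPM in uninjured, 6278 CPM in 72 h and 10441 CPM in 6 weeks HSC-like cells, and its part in the results was not tested.

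Promoter sequence is shown for Tnc and Spp1, the members with the widest difference between injured and uninjured mesenchyme in the 10X and Smart-seq2 data, respectively, among members that reached 10 CPM or entered the Smart-seq2 test and had an entry in the RefSeq table for GRCm38.p6 (7 of 10 members matched). Each run is 300 bases, from 250 before to 50 after the annotated start, and capitals mark matches to any of 4 motifs searched on both strands: the AP-1 site TGANTCA, the TEAD site GGAATG, the RUNX site AACCACA and the TATA box TATAAA.
Tnc, chr4:64046966-64047265, minus strand: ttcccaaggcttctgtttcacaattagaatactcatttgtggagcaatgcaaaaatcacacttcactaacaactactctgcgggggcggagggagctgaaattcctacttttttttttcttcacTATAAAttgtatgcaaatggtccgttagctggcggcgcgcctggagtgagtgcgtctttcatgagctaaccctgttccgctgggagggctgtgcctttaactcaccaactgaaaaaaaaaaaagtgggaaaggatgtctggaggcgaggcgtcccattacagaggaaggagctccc
Spp1, chr5:104434861-104435160, plus strand: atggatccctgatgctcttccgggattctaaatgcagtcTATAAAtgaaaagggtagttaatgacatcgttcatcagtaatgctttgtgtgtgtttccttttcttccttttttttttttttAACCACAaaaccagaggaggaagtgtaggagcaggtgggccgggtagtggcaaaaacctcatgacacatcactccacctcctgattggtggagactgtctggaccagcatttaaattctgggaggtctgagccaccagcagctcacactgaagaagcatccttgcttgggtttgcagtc
The TATA letters occurred in a promoter of 4 of the 7 matched members (Postn, Spp1, Thbs2 and Tnc), against 15.7% of all 27025 genes in the table. The RUNX letters occurred in Spp1 alone of the 7 (6.09% of all genes), the TEAD letters in Thbs4 alone (16.6%), and the AP-1 letters in none of them (8.97%). Genes are counted by any of their promoters, of which Tnc, Postn and Spp1 have 2 each, and per promoter the shares were 13.6%, 5.27%, 14.7% and 7.81% of 32851 in the same order. The 2 RUNX and TATA matches in Spp1 did not overlap. Matches were counted at any position of a run. In the runs shown the TATA letters began at base 125 for Tnc and base 40 for Spp1, with the annotated start after base 250. They were therefore not shown to be working TATA boxes.

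In the uninjured 10X libraries the members divided by cell type. Thbs3, Thbs4 and Comp were FB-like genes, Sparcl1 was highest in VSMC-like cells, Postn and Tnc were highest in HSC-like cells, and Sparc was high in both HSC-like and FB-like cells. Each CPM carries an exact Poisson 95% interval that covers counting error only, and there was 1 library per condition and protocol, so no test between classes or conditions was made in these libraries.

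Thbs4 reached 212 CPM (206-218) in the FB-like class, 15.3 CPM (12.3-18.8) in the VSMC-like class and 0.0647 CPM (0.0133-0.189) in the HSC-like class. Comp followed the same order, with 17.5, 1.22 and 0.0216 CPM for FB-like, VSMC-like and HSC-like cells, the last being 1 UMI in 46392040. Thbs3 was at 89.1, 14.8 and 2.63 CPM in that order. The 3 pentameric thrombospondins were thus near the detection limit or low in stellate cells.

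Sparcl1 went from 1921 CPM in the VSMC-like class through 483 CPM in the FB-like to 182 CPM in the HSC-like class. A UMI of it was found in 97.2% of VSMC-like, 69.1% of FB-like and 58.7% of HSC-like cells, and the VSMC-like and HSC-like shares were 95.6% and 28.7% after each cell was thinned to 2000 UMIs. For Sparc the VSMC-like class was instead the lowest, at 1407 CPM, below 4888 CPM (FB-like) and 4658 CPM (HSC-like). The FB-like and HSC-like values of Sparc were close but their intervals (4857-4918 and 4638-4677) did not overlap. FB-like and VSMC-like cells came from another digestion than HSC-like cells, and digestion and class cannot be told apart.

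Postn was at 395, 149 and 41.0 CPM and Tnc at 11.5, 6.23 and 2.26 CPM for the HSC-like, FB-like and VSMC-like classes. Thbs2 was at 56.4 CPM (FB-like) and 52.7 CPM (HSC-like), with overlapping intervals, and at 13.4 CPM (VSMC-like). Thbs1 had the narrowest range, 33.1 CPM (HSC-like), 46.5 CPM (FB-like) and 52.1 CPM (VSMC-like), the last pair with overlapping intervals. Spp1 was almost absent from uninjured mesenchyme, at 0.194 CPM (HSC-like) and 1.40 CPM (FB-like), with 0 of 5757829 UMIs in the VSMC-like class, where 3 UMIs would be 0.521 CPM and the interval reached 0.641 CPM.

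**Figure D1:**
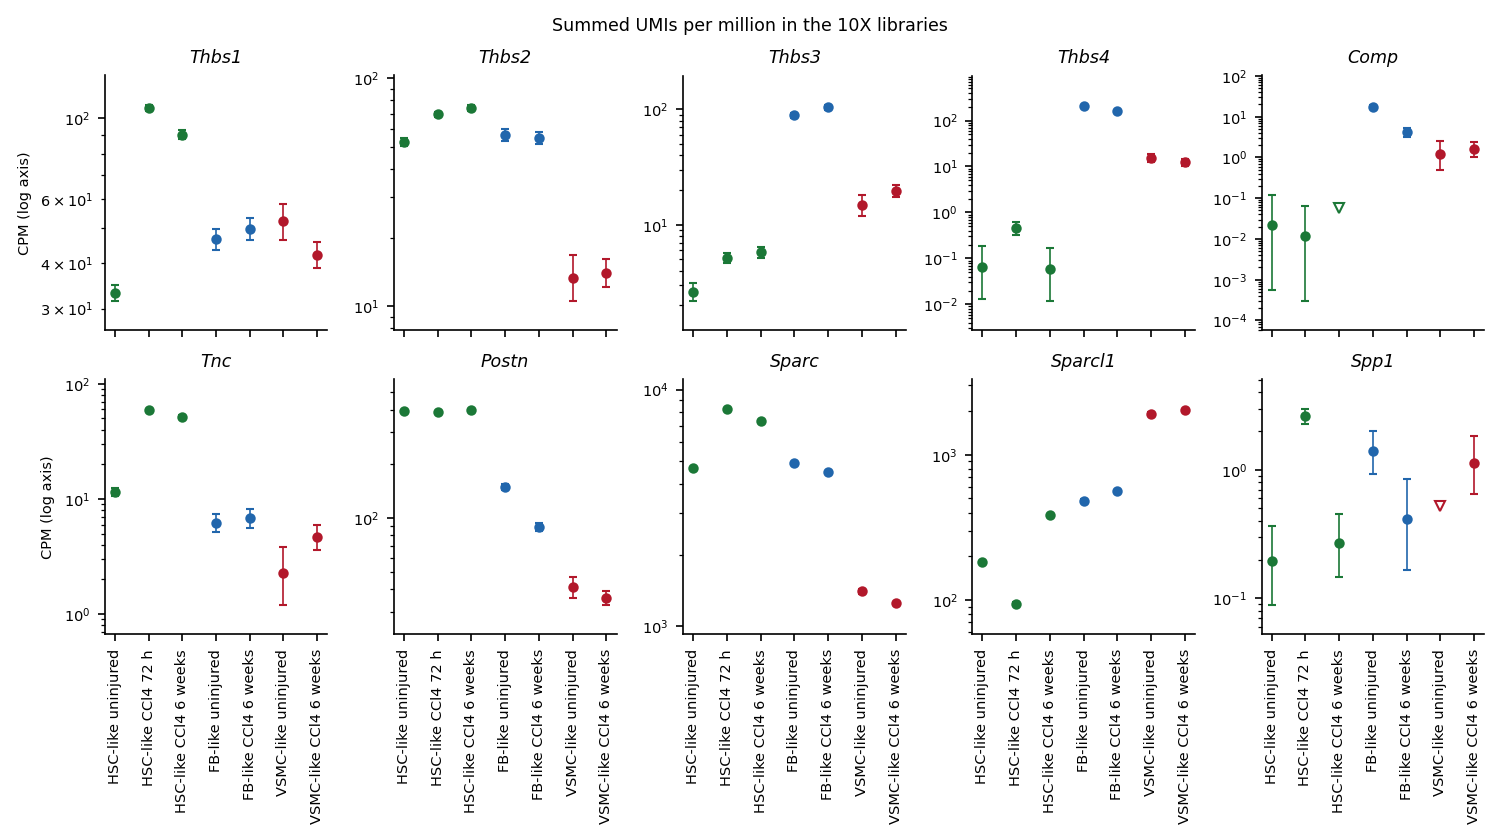
Summed level (CPM, log axis, a separate scale in each panel) of the 10 members in HSC-like (green), FB-like (blue) and VSMC-like (red) cells of each 10X condition. Bars are exact Poisson 95% intervals and open triangles mark a count of 0 at the level that 3 UMIs would give; Thbs3, Thbs4 and Comp are highest in the blue points and Sparcl1 in the red ones.

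The Smart-seq2 portions, in RPM (a gene's reads per 1000000 reads) summed over the wells of a class, had the same highest class on average for Thbs3, Thbs4, Sparcl1 and Postn, but not for Comp and Tnc. Thbs3 was at 143 ± 51.2 RPM in FB-like (SD, n = 6 uninjured portions), 29.7 ± 5.56 RPM in VSMC-like (n = 6) and 5.86 ± 3.71 RPM in HSC-like wells (n = 2), and no portion of one class overlapped another. Sparcl1 was at 6981 ± 442 RPM in VSMC-like, 1905 ± 309 RPM in FB-like and 654 ± 131 RPM in HSC-like wells, also without overlap. Postn was at 1476 and 1562 RPM in the HSC-like portions, above every uninjured FB-like (0.369-977 RPM) and VSMC-like (93.9-380 RPM) portion. Thbs4 ranged from 0 to 188 RPM among the FB-like portions and did not exceed 2.81 RPM in VSMC-like or 0.0589 RPM in HSC-like portions. Comp stayed at 0.942 RPM or less in FB-like, 1.68 RPM or less in VSMC-like and 0.530 RPM or less in HSC-like portions, so it showed no class order. Tnc was at 18.4 to 219 RPM in FB-like, 0 to 96.3 RPM in VSMC-like and 32.7 and 52.4 RPM in HSC-like portions. Thbs1 was at 106 and 139 RPM in the HSC-like portions, below every FB-like (243-878 RPM) and VSMC-like (197-805 RPM) portion. Sparc was at 3701 and 4010 RPM in the HSC-like portions, below every FB-like portion (4423-10020.4 RPM). FB-like and VSMC-like ranges overlapped for Thbs1, Thbs4, Comp, Tnc, Postn and Spp1. All HSC-like wells came from 2 portions of plate 6, whose label names both digestions. Class, portion and digestion therefore cannot be told apart for them.

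After CCl4, HSC-like cells held more Tnc and Thbs1 at both times. Tnc was at 11.5 CPM in uninjured, 58.9 CPM in 72 h and 51.2 CPM in 6 weeks cells, which is 5.11-fold (4.67-5.59) and 4.44-fold (4.05-4.88) of the uninjured level. Thbs1 was at 33.1, 107 and 90.2 CPM in the same order, or 3.22-fold (3.05-3.40) and 2.72-fold (2.57-2.88). Both genes had a higher value in each injured library than in the uninjured one by more than counting error.

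The share of cells with a UMI was also higher after injury. For Tnc it was 6.70% in uninjured, 32.6% in 72 h and 32.1% in 6 weeks HSC-like cells, and 2.38%, 9.04% and 9.76% after thinning. For Thbs1 it was 12.1%, 41.1% and 38.7%, and 4.93%, 14.6% and 14.5% after thinning. Beside the HSC-like cells these 3 libraries held only 0, 161 and 4 FB-like and 0, 1 and 0 VSMC-like cells, so no class that lacks the genes gave a background share for free RNA.

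The 2 collagen-binding relatives differed between the times. Sparc was at 4658 CPM in uninjured, 8266 CPM in 72 h and 7335 CPM in 6 weeks HSC-like cells, or 1.77-fold (1.77-1.78) and 1.57-fold (1.57-1.58). Sparcl1 was at 182, 94.5 and 385 CPM, that is 0.518-fold (0.502-0.534) at 72 h and 2.11-fold (2.06-2.17) at 6 weeks. Sparcl1 was thus lower than uninjured at the early time and higher at the late time, and both comparisons used the same uninjured library.

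Postn was level, at 395, 391 and 399 CPM, with folds of 0.991 (0.973-1.01) and 1.01 (0.991-1.03). Thbs2 was at 52.7, 69.5 and 74.0 CPM, or 1.32-fold and 1.40-fold. The remaining members stayed under 10 CPM in every HSC-like sum: Thbs3 at 2.63, 5.13 and 5.77 CPM, Thbs4 at 0.0647, 0.451 and 0.0575 CPM, and Comp at 1, 1 and 0 UMIs. Spp1 was at 0.194, 2.61 and 0.268 CPM, and its 220 UMIs at 72 h lay in 116 of 7148 cells, with 79.5% of them in the top 1% of cells.

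Of the 10 members, 6 reached 10 CPM in either library of each comparison, and a gene was called where it was at least 2-fold higher or lower with that minimum. At 72 h, 2 of the 6 (Thbs1 and Tnc) were called higher, against 6.87% of 8375 genes, and none lower, against 9.42%. At 6 weeks, 3 of the 6 (Thbs1, Tnc and Sparcl1) were called higher, against 2.95% of 8141 genes, and none lower, against 1.62%. The median log2 fold of the 6 was 0.61 at 72 h and 0.87 at 6 weeks, beside -0.22 over all genes at each time. With a single library per condition these differences have no replicate check. Summed proliferation markers were at 28.7 CPM in uninjured, 339 CPM in 72 h and 38.4 CPM in 6 weeks HSC-like cells, and their part in these values was not tested. The mesenchymal marker sums moved in the same cells. HSC markers were at 24588, 4396 and 12078 CPM, VSMC markers at 594, 1908 and 990 CPM and FB markers at 30.5, 249 and 538 CPM in uninjured, 72 h and 6 weeks cells. Their part in the member values was not tested either.

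The 161 FB-like cells of the 72 h library, which had no protocol 2 uninjured counterpart, held 244 CPM of Thbs1, 176 CPM of Tnc, 8788 CPM of Sparc and 56.2 CPM of Sparcl1. Summed FB markers were at 1855 CPM there, against 8744 CPM in uninjured FB-like cells of protocol 1, and summed VSMC markers at 4725 CPM, against 532 CPM, so the markers go against the name in part. Summed hepatocyte markers were at 672 CPM in these cells. All 181 UMIs of Spp1 in this class lay in 1 cell.

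**Figure D2:**
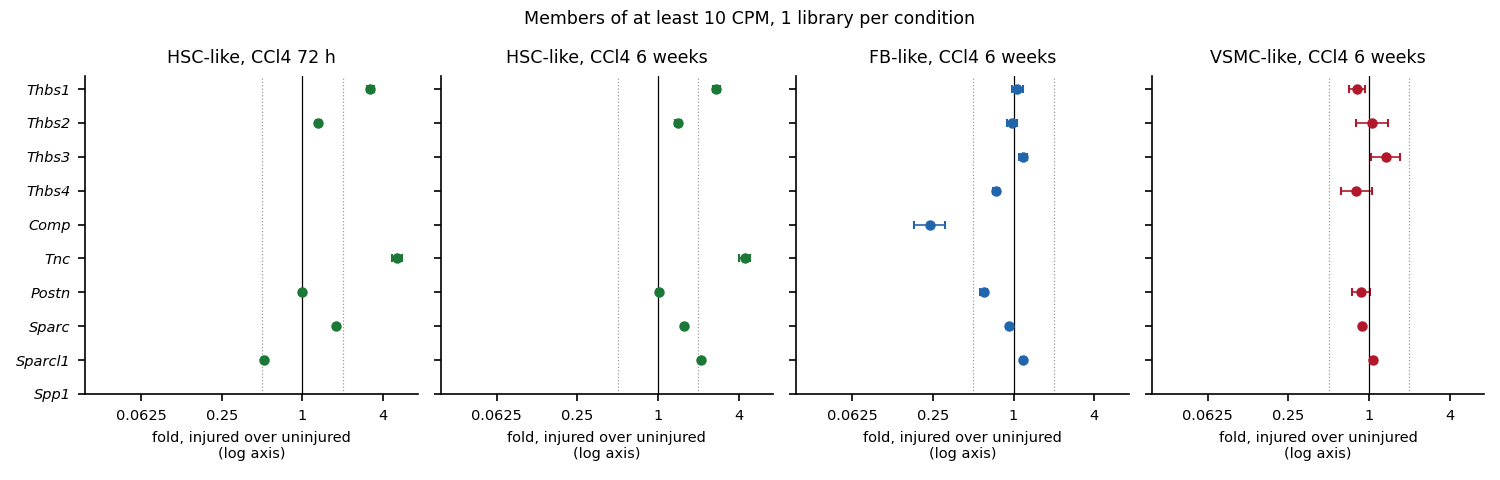
Fold of summed CPM, injured over uninjured (log axis), for members with at least 10 CPM in the higher library, in 4 pairs of 10X libraries of 1 protocol. Bars are 95% counting intervals, dotted lines mark 2-fold either way; Tnc and Thbs1 lie above 2 at both times in HSC-like cells, and Comp lies at 0.236 in FB-like cells.

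Within the injured stellate cells the members were unevenly spread over clusters. At 72 h, Thbs1 was at 140 CPM in cluster B0 and 156 CPM in B5, the clusters of most 72 h cells, but at 35.8 CPM in B9 and 11.4 CPM in B11. Tnc had the same order in part, with 75.7 CPM in B0, 59.3 CPM in B5, 66.9 CPM in B10, 17.6 CPM in B9 and 10.3 CPM in B11. At 6 weeks, Thbs1 was at 135 CPM in A2, 90.3 CPM in A11 and 39.7 CPM in A1, while Tnc was at 47.4, 65.0 and 48.7 CPM. The uninjured clusters also differed in Thbs1, with 19.2 CPM in A0, 52.5 CPM in A3 and 27.7 CPM in A9. Sparcl1 was highest in A11 at 616 CPM, against 398 CPM in A2 and 261 CPM in A1.

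Stellate cells differ along the axis from portal tract to central vein, and HSC-like cells of each library were divided into portal-associated (PaHSC-like) and central vein-associated (CaHSC-like) cells by the study's zonation genes. That list was chosen by the study on these cells and holds Sparc, which was left out of the score together with the other members. In uninjured liver Sparc and Tnc had the highest ratios of the members between the zones. The ratio of PaHSC-like to CaHSC-like CPM was 1.44 (1.43-1.45) for Sparc, 1.25 for Tnc, 1.15 for Thbs1, 1.06 for Postn, 0.912 for Thbs2 and 0.891 for Sparcl1. None of the 6 reached 1.5-fold, against 2.32% of 8053 genes higher and 1.40% lower, while 2.76% of genes had a ratio as high as that of Sparc and 5.86% as high as that of Tnc.

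At 72 h most members were lower in the PaHSC-like cells. Thbs1 was at 46.0 CPM in PaHSC-like and 122 CPM in CaHSC-like cells, a ratio of 0.376 (0.349-0.405). Tnc was at 30.8 and 66.1 CPM, and Postn at 216 and 436 CPM (0.494). Thbs2 (0.634) was also past 1.5-fold, whereas Sparcl1 (0.676) and Sparc (0.945) were not. Of the 6 members, 4 were therefore past 1.5-fold lower, against 5.31% of 7879 genes, and none higher, against 6.55%.

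At 6 weeks the members no longer shared a side. Sparcl1 was at 174 CPM in PaHSC-like and 474 CPM in CaHSC-like cells, a ratio of 0.367 (0.352-0.382), the only member past 1.5-fold lower, against 4.15% of 7913 genes. None was past 1.5-fold higher, against 5.75%. Sparc was at 9047 and 6611 CPM (1.37) and Postn at 461 and 373 CPM (1.24), on the portal side, and Thbs1 (0.681), Thbs2 (0.709) and Tnc (0.766) on the central side. PaHSC-like cells numbered 2999 of 6850 in uninjured, 1672 of 7148 in 72 h and 1671 of 5450 in 6 weeks liver, and the cells of 1 library are not replicates.

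HSC-like cells were also divided at the median share of their UMIs on Col1a1, Col1a2 and Col3a1. Tnc and Thbs1 were higher in the collagen-high cells of every library. Tnc was at 14.95 against 8.22 CPM in uninjured (1.82-fold), 89.6 against 21.7 CPM in 72 h (4.13-fold) and 64.0 against 37.8 CPM in 6 weeks cells (1.69-fold). Thbs1 was 2.02-fold, 3.14-fold and 1.33-fold higher in the same order. Postn was 2.03-fold higher in the collagen-high cells at 72 h and near level in uninjured (1.05-fold) and 6 weeks (1.02-fold) cells. Sparc, in contrast, was 1.12-fold to 1.18-fold higher in every library. Past 1.5-fold were 2 members in uninjured, 3 at 72 h and 1 at 6 weeks, against 0.475%, 3.59% and 2.1% of genes.

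**Figure D3:**
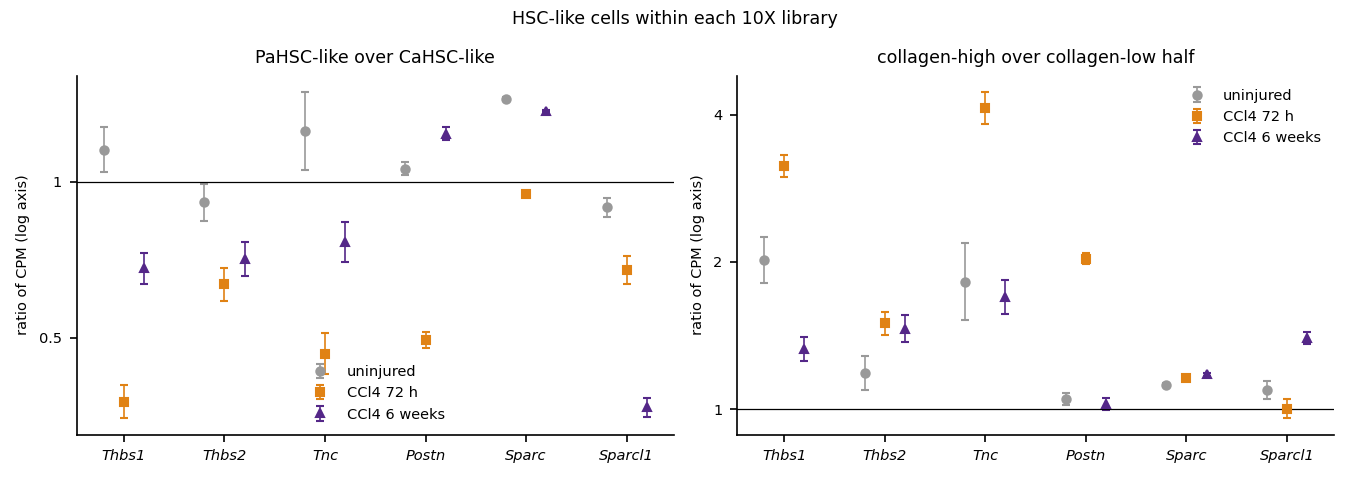
Ratios of CPM (log axis) within the HSC-like cells of each 10X library for the 6 members of at least 10 CPM, PaHSC-like over CaHSC-like on the left and collagen-high over collagen-low cells on the right. Grey circles are uninjured, orange squares 72 h and purple triangles 6 weeks; bars are 95% counting intervals, and at 72 h Thbs1, Thbs2, Tnc and Postn lie below 1 on the left and above it on the right.

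In the protocol 1 libraries, 6 weeks of CCl4 left most members of FB-like and VSMC-like cells near the uninjured level. Comp was at 17.5 CPM (352 UMIs in 76 of 4025 cells) in uninjured and 4.14 CPM (70 UMIs in 29 of 2622 cells) in 6 weeks FB-like cells, a fold of 0.236 (0.180-0.306). It was the only 1 of 8 members called, against 0.488% of 8409 genes lower, and none was called higher, against 1.49%. In uninjured cells 89.8% of the Comp UMIs lay in the top 1% of cells, so few cells set this value.

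Postn was at 149 CPM in uninjured and 89.1 CPM in 6 weeks FB-like cells (0.598, 0.562-0.637), and Thbs4 at 212 and 158 CPM (0.744, 0.709-0.781). Thbs3 (1.17), Sparcl1 (1.17), Thbs1 (1.07), Thbs2 (0.970) and Sparc (0.918) stood closer to the uninjured level. Cluster A7 carried the fibroblast levels of several members, with 508 CPM of Thbs4 and 25.05 CPM of Comp, and it held 1136 of the 4025 uninjured and 689 of the 2622 injured FB-like cells. Thbs4 was at 170 CPM in A6, 8.75 CPM in A8 and 6.67 CPM in A10, so FB-like clusters differed more in Thbs4 than the 2 conditions did.

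In VSMC-like cells none of the 7 members tested was called, against 2.44% of 8225 genes higher and 0.474% lower. Sparcl1 was at 1921 CPM in uninjured and 2046 CPM in 6 weeks cells (1.07, 1.04-1.09), Sparc at 1407 and 1251 CPM (0.889), and Thbs1 at 52.1 and 42.1 CPM (0.808). The widest was Thbs3, at 14.8 and 19.6 CPM (1.33, 1.04-1.71).

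The collagen-high cells of protocol 1 held more of several members. In FB-like cells Sparc was 2.06-fold higher in uninjured and 2.42-fold in 6 weeks cells, Postn 2.11-fold and 2.55-fold, and Thbs4 1.65-fold and 4.88-fold, against 1.51% and 2.06% of genes past 1.5-fold. Comp was also past 1.5-fold in uninjured (2.61-fold) and Tnc in 6 weeks FB-like cells (3.82-fold). Thbs1 went the other way at 6 weeks, at 37.4 CPM in collagen-high and 61.9 CPM in collagen-low FB-like cells (0.604). In VSMC-like cells Postn was 4.28-fold and 3.76-fold higher, against 11.2% and 5.77%. Thbs4 (4.47-fold and 2.68-fold), Thbs2 (2.41-fold and 1.63-fold) and Thbs3 (2.28-fold and 1.81-fold) were also past 1.5-fold in both conditions. Thbs1 was at 1.27-fold and 2.53-fold, and Sparc was at 1.78-fold in uninjured VSMC-like cells. Sparcl1 was lower in the collagen-high VSMC-like cells in both conditions (0.794 and 0.846). Summed FB markers were at 1056 CPM in uninjured and 970 CPM in 6 weeks VSMC-like cells, and called doublets were kept. The part of fibroblast RNA or doublets in these ratios was not tested.

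BDL was sampled only in Smart-seq2 wells of protocol 1. In FB-like wells Spp1 and Comp were at high levels in some BDL portions and near 0 in every other condition, and Sparc and Postn were on average higher, but no member passed the test across all genes. Spp1 was at 580, 2030.2 and 384.2 RPM in the portions labelled BDL 1 of plates 1, 2 and 4, and at 0.237 and 53.5 RPM in the portions of BDL 2 of plates 1 and 2. Uninjured portions ranged from 0.039 to 3.36 RPM and CCl4 6 weeks portions from 0.207 to 1.17 RPM. All BDL portions but one (plate 1, BDL 2) therefore lay above all others of FB-like wells. These levels leave out wells without a class name. Among those, the 169 wells of cluster S5, 143 of them from CCl4 6 weeks, held 3477 RPM of Spp1, so high Spp1 was not limited to BDL wells.

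Comp was at 109, 166 and 54.1 RPM in the BDL 1 portions and at 0 reads in both BDL 2 portions. It was at most 0.942 RPM in uninjured and 5.01 RPM in CCl4 portions. Comp and Spp1 were thus high in the same 3 portions, all of which carry the number BDL 1 in the plate layouts. The BDL 2 portions held 10 and 9 FB-like wells, against 90, 61 and 108 in the BDL 1 portions, and whether a number on different plates is the same mouse is not stated.

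The portions were compared by edgeR's quasi-likelihood test on summed counts with plate as a term, and SEs were derived from its F statistic. The log2 fold change of Spp1 was 9.49 ± 2.31 (SE), with an unadjusted p of 0.00126 and a Benjamini-Hochberg adjusted p of 0.442 by edgeR. That of Comp was 7.77 ± 2.60 (adjusted p = 0.807 by edgeR). Without the portions of BDL 1 that of Spp1 was 4.49 and that of Comp turned to -5.73, neither passing the test. Comp in FB-like wells therefore rested on the portions of BDL 1. No gene of 14676 was called in either direction (0.0% higher and 0.0% lower) by edgeR, and 782 had an unadjusted p under 0.05. DESeq2 on the same sums called 270 genes higher and 121 lower, with Spp1 (adjusted p = 3.73e-06) and Sparc (adjusted p = 0.0101) among those higher.

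The Spp1 reads of the BDL portions came from few wells. Of 278 FB-like BDL wells, 26 held at least 100 RPM, and 25 of these 26 were in cluster S8. The median of the 26 was 2592 RPM and the highest 74143 RPM, so single wells weigh heavily in a portion's level. Comp reached 100 RPM in 14 wells, 11 of them in S8, and 3 wells reached it for both genes. Cluster S8 held 119 wells, of which 100 were from BDL, and its summed levels were 1823 RPM of Spp1, 203 RPM of Comp, 1650.2 RPM of Postn and 12981 RPM of Sparc. The clusters were formed without these genes.

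Bile duct genes were found in few of these wells, all of which had been named FB-like. Neither the 26 wells nor the 252 other FB-like BDL wells had any with reads of 3 or more of 6 cholangiocyte markers. Epcam was found in 1 of 26 and 3 of 252 wells and Krt19 in 2 of 26 and 7 of 252, and these shares were not tested. Pdgfrb was found in 25 and Col1a1 in all 26. The median Pdgfrb level was 1315 RPM in these wells and 628 RPM in the 252 others, and the medians of Col1a1 were 4524 and 4951 RPM. Proliferation markers reached 378 RPM in an FB-like BDL portion, against 15.2 RPM at most in uninjured portions, and their part in the Spp1 level was not tested.

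Sparc was at 7939, 10623, 13927, 11381 and 10305 RPM in the 5 BDL portions, against a lowest of 4423, a median of 6035 and a highest of 10020.4 RPM in the 6 uninjured ones. The groups overlapped, with 4 of 5 BDL portions above every uninjured portion. Its log2 fold change was 1.01 ± 0.27 (SE; unadjusted p = 0.00276, adjusted p = 0.536 by edgeR). Postn was at 513 to 2943 RPM in BDL and 0.369 to 977 RPM in uninjured portions, with a log2 fold change of 2.40 ± 0.95 (adjusted p = 0.847 by edgeR).

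Thbs4 was at 89.9, 1568, 5.07, 760 and 260 RPM in BDL portions, with the 1568 RPM coming from 1 of 10 wells and the 760 RPM from 1 of 9. Its log2 fold change was 3.58 ± 2.73 (adjusted p = 0.937 by edgeR). Thbs1 (0.21 ± 0.48), Thbs2 (-0.17 ± 0.36), Thbs3 (0.30 ± 0.40), Sparcl1 (0.16 ± 0.27) and Tnc (-0.37 ± 1.36) had log2 fold changes smaller than their SE. The median log2 fold change of the 10 members was 0.66, beside 0.05 over all genes. The immediate-early sum was 8158 to 25412 RPM in FB-like BDL and 16239 to 27801 RPM in uninjured portions, and its part was not tested.

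In VSMC-like wells Sparcl1 rose after BDL and was the only gene of 14305 to pass the test. It was at 15994, 13719, 13092, 14890.7 and 14981 RPM in the 5 BDL portions. The uninjured portions ranged from 6347 to 7521 RPM, with a median of 7033 RPM, and the CCl4 6 weeks portions were at 7778, 8659, 7035 and 7222 RPM. Every BDL portion was above every uninjured and CCl4 portion, and on each of the 3 plates with BDL wells the BDL portions were at more than 2 times the uninjured portion of the plate (6629 RPM on plate 1, 6347 RPM on plate 2 and 7323 RPM on plate 4).

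The log2 fold change of Sparcl1 was 1.19 ± 0.12 (SE; adjusted p = 0.00613 by edgeR, higher in 5 of 5 BDL portions). The background was 0.00699% of genes called higher and 0.0% lower, and 997 genes had an unadjusted p under 0.05. Leaving out the uninjured portion of plate 1 or plate 2 raised the adjusted p to 0.203 and 0.334, and leaving out the portions of BDL 1, BDL 2 or CCl4 1 raised it to 0.0962, 0.0748 and 0.0656, with log2 fold changes of 1.16 to 1.20. Sparcl1 had a read in 349 of 350 BDL and 355 of 356 uninjured VSMC-like wells, so detection was near its ceiling in both. Cluster S1, with 156 BDL and 69 uninjured wells of 294, held 14398 RPM of it. Cluster S3, with 21 BDL and 162 uninjured wells of 243, held 8241 RPM. The conditions thus differed in their mix of clusters, and the part of that mix in the Sparcl1 difference was not tested. The immediate-early sum was 12328 to 18937 RPM in VSMC-like BDL and 15925 to 27541 RPM in uninjured portions, and its part was not tested.

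No other member was called in VSMC-like BDL wells. Thbs3 had the largest estimate for its error, at 29.9 to 66.8 RPM in BDL and 24.4 to 39.7 RPM in uninjured portions, with a log2 fold change of 0.73 ± 0.37 (adjusted p = 0.764 by edgeR). Spp1 stayed between 0.485 and 3.57 RPM in the BDL portions of this class. Sparc was at 1699 to 2558 RPM in BDL and 1431 to 3200 RPM in uninjured portions, with overlap.

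**Figure D4:**
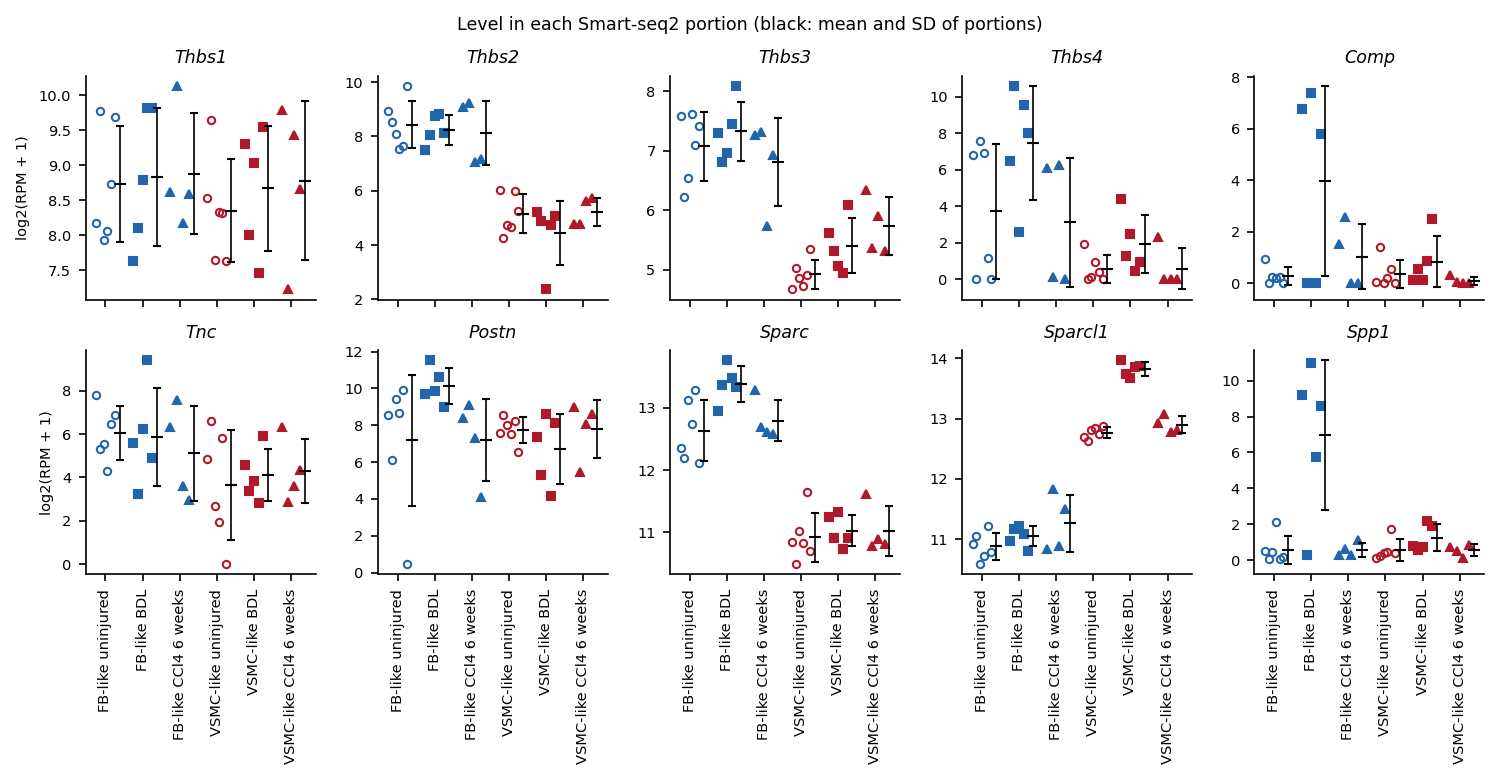
log2(RPM + 1) of the 10 members in each Smart-seq2 portion of FB-like (blue) and VSMC-like (red) wells, open circles for uninjured, squares for BDL and triangles for CCl4 6 weeks. Black marks are the mean and SD of the portions (n = 6, 5 and 4); the VSMC-like BDL squares of Sparcl1 lie above all other points of that class, and the FB-like BDL squares of Spp1 and Comp spread from near 0 to the top of their panels.

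After 6 weeks of CCl4 no member passed the test in either class of Smart-seq2 wells. Wells without a class name were left out of these fits. They were 36 of 121 kept wells in CCl4 1 and 12 of 123 in CCl4 2 of plate 3. On plate 5 they were 90 of 162 in CCl4 1 and 24 of 76 in CCl4 2. In FB-like wells Postn was at 339, 540, 154 and 15.9 RPM in CCl4 portions, with a log2 fold change of -2.33 ± 0.95 (unadjusted p = 0.0296, adjusted p = 1 by edgeR). The other 9 members had unadjusted p-values of 0.192 or more in that edgeR fit. No gene of 14676 was called in FB-like and none of 14305 in VSMC-like wells (0.0% each way) by edgeR, with 290 and 471 genes at an unadjusted p under 0.05. DESeq2 called 104 genes higher and 120 lower in FB-like and 173 and 125 in VSMC-like wells, with no member among them. Of the VSMC-like estimates, Thbs3 was nearest the threshold, at 0.95 ± 0.44 on the log2 scale (unadjusted p = 0.0538, adjusted p = 1 by edgeR).

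Whether BDL acted differently on the 2 classes was tested with the portion as a block. The FB-like minus VSMC-like difference of the log2 fold change was -0.95 ± 0.23 for Sparcl1 (unadjusted p = 0.0007, adjusted p = 0.622 by edgeR) and 6.60 ± 2.17 for Spp1 (unadjusted p = 0.0076, adjusted p = 0.896 by edgeR). Neither passed, and of 16014 genes 0.0% were called higher and 0.025% lower, no member among them. DESeq2 called both (adjusted p = 0.0199 for Sparcl1 and 0.00301 for Spp1). For CCl4 6 weeks no member and no gene was called by edgeR (419 genes at an unadjusted p under 0.05), and DESeq2 called 50 genes higher and 75 lower, with no member among them.

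**Figure D5:**
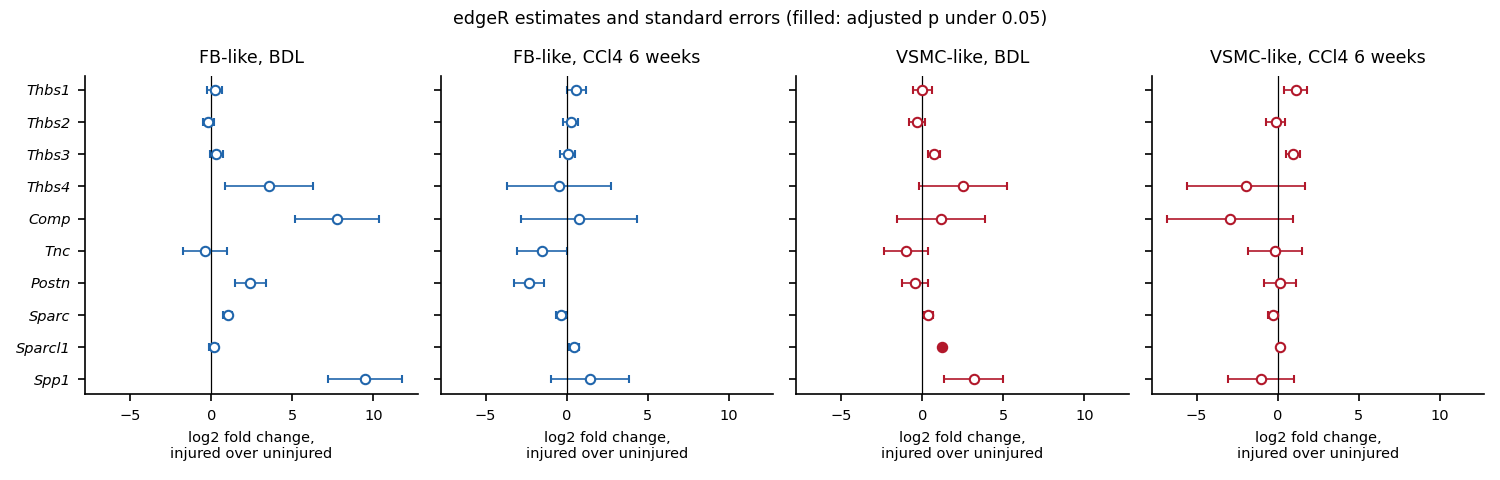
edgeR log2 fold changes (injured over uninjured) with standard errors derived from the F statistic, for the 10 members in FB-like (blue) and VSMC-like (red) Smart-seq2 wells after BDL or 6 weeks of CCl4. Filled points have an adjusted p under 0.05; Sparcl1 in VSMC-like BDL wells is the only one, and Spp1 and Comp in FB-like BDL wells have the largest estimates and wide errors.

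The partners of the members were followed in 3 lists: 16 receptors and binding partners, 17 other matricellular and related genes, and 5 fibrillar collagens. None of these genes passed edgeR's test in any Smart-seq2 comparison at an adjusted p under 0.05. In 72 h HSC-like cells of the 10X data, 4 of 5 collagens were called higher, Col1a1 by 10.1-fold (201 to 2033 CPM), Col5a2 by 4.79-fold, Col1a2 by 4.59-fold and Col3a1 by 3.07-fold. Of 12 other matricellular genes tested there, Wisp2 (0.302 to 23.9 CPM) and Vcan (3.21 to 13.6 CPM) were called higher, and Tgfbi (2857 to 1156 CPM), Tnxb (115 to 49.2 CPM) and Ctgf (103 to 50.6 CPM) lower. Of 15 receptors tested, the proteoglycan Sdc1 alone was called higher (1.79 to 12.4 CPM). Over all 8375 genes tested there, 6.87% were called higher and 9.42% lower, so the receptor count was near the share of all genes.

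At 6 weeks the same lists held fewer calls, as did all genes, with 2.95% of 8141 called higher and 1.62% lower in HSC-like cells. Col1a1 was 3.21-fold higher in HSC-like cells and Spon2 was at 0.319 of the uninjured level, while no receptor was called. Sdc1 was again higher, at 9.87 against 1.79 CPM (5.52-fold, 4.37-7.04), but lay under the minimum of 10 CPM for a call. FB-like cells had no call in the 3 lists, against 1.49% of 8409 genes higher and 0.488% lower. In VSMC-like cells the integrins Itga5 (6.08 to 13.3 CPM) and Itgb3 (2.78 to 11.4 CPM) and the matrix gene Spon1 (21.4 to 47.7 CPM) were called higher. Over all 8225 genes of that comparison, 2.44% were called higher and 0.474% lower.

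Over the 32 Smart-seq2 sums (portion and class), the genes most alike in log2(RPM + 1) were sought for each member among genes of at least 10 RPM on average. These correlations are descriptions over sums that share portions and differ mainly by class. Sparc was most like the collagens Col3a1 (r = 0.955), Col5a2 (0.949) and Col1a2 (0.946). Sparcl1 was most like Col18a1 (r = 0.940), the gene of a basement membrane collagen, and Comp and Spp1 were each other's nearest gene (r = 0.872). Comp and Spp1 were high together only in the FB-like sums of BDL 1, so their r rests on few sums. Thbs4 was nearest to Cthrc1 (r = 0.804), Thbs2 to Frem1 (0.906), Thbs3 to Ppap2b (0.897), Postn to Isg20l2 (0.771), Tnc to Sash1 (0.722) and Thbs1 to Flnc (0.665).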

How the data were processed

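The authors aligned 10X reads to mm10 with Cell Ranger 2.1.0; their deposited values are UMI counts. For Smart-seq2 the authors ran STAR against mm10, counted reads by rpkmforgenes and deposited read counts per gene and well, spike-in counts and plate layouts. The members and lists were chosen with earlier results of these data known, and the immediate-early list after the data were seen. All 10 members were measured in every comparison, but the text does not name each of them in each comparison.

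Cells with at least 300 genes and at most 30% mitochondrial UMIs were kept. Cells and wells were clustered (2000 variable genes without the members, 10 principal components, 30 neighbours, Leiden resolution 0.8) and named X-like from marker lists. Doublets scored against simulated ones were kept, except in an alternative. CPM was computed from UMIs summed per library and class, without a test. Smart-seq2 counts were summed per portion with at least 5 wells of a class, and RPM computed. Portions of plates 1 to 5 were tested with edgeR 4.0.16 (TMM, filterByExpr, quasi-likelihood, plate as a term, adjusted p under 0.05), and plate 6, which holds uninjured wells alone, entered no test. On simulated data, 35.5% of 200 genes changed 4-fold were recovered for FB-like wells, BDL against uninjured (14226 genes). The changed genes were drawn from the better-counted genes and no plate effect was simulated. The share is therefore not the power of the real test, least of all for members nearly absent from uninjured wells. The SE beside an edgeR log2 fold change is its absolute value divided by the square root of the quasi-likelihood F statistic, not an error of the fitted coefficient. DESeq2 1.42.0 was an alternative. Portions of 1 mouse number on several plates may not be separate animals, so p-values measure only the spread between portions. Reads without molecular identifiers are not independent molecules, and intervals cover counting error only.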

Additional observations from a re-analysis of the deposited data

Results flagged for a closer look

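In 15 of 60 groups of portions, 1 portion of a member lay far from the others by a test of the gap over the range. Chance gives this in about 1 group in 20 only where values are normally distributed. RPM were used without a log transform and were not shown to be so distributed. The 15 flagged portions were therefore not shown to be more than chance gives. In FB-like BDL wells these were Spp1 at 2030.2 RPM in BDL 1 of plate 2 (next 580 RPM) and Tnc at 674 RPM in BDL 2 of plate 2 (next 74.5 RPM, 2 of 9 wells with a read). In FB-like CCl4 wells of plate 3 they were Sparc at 9990.5 RPM in CCl4 1 (next 6593 RPM) and Thbs1 at 1126 RPM in CCl4 2 (next 392 RPM). In VSMC-like wells they were Sparc at 3147 RPM in CCl4 1 of plate 3 and at 3200 RPM in the uninjured portion of plate 5, and Thbs1 at 805 RPM in the uninjured portion of plate 2. The other 8 were at low levels. Comp was at 0.942 RPM in uninjured FB-like wells of plate 1, 4.69 RPM in VSMC-like wells of BDL 1 on plate 4 and 1.68 RPM in uninjured VSMC-like wells of plate 2. Spp1 was at 3.36 RPM in uninjured FB-like wells of plate 4 and 2.36 RPM in uninjured VSMC-like wells of plate 5. Thbs4 in VSMC-like wells was at 20.5 RPM in BDL 1 of plate 1, 3.90 RPM in CCl4 1 of plate 3 and 2.81 RPM in the uninjured portion of plate 1.

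Sparcl1 in HSC-like 10X cells stood on opposite sides of the uninjured library, 0.518-fold at 72 h and 2.11-fold at 6 weeks. The difference between the times was not tested, since each is 1 library and both share the uninjured one.

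Spp1 was also high in wells that received no class name and entered only the alternative with all wells of a portion. The 169 unnamed wells of cluster S5, 143 of them from CCl4 6 weeks, held 3477 RPM, and the 27 unnamed wells of cluster S11 held 1264 RPM, against at most 3.36 RPM in uninjured FB-like portions. The S5 wells also held 338 RPM of Tnc and 970 RPM of Thbs1. Genes leading S5 included Epcam, Mmp7, Tm4sf4 and Saa3, and those leading S11 included the mesothelial markers Msln, Upk1b and Upk3b. These wells were therefore not shown to be fibroblasts.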

How the results depend on the processing

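Of the Smart-seq2 counts of members called, 278 of 292 were kept under the alternatives. Most of these were 0 in the main fit and in the alternative, so this share says little about stability. The only main count other than 0 was the 1 member (Sparcl1) higher in VSMC-like BDL wells. In FB-like BDL wells 5 members were called higher with no filter on low counts (Spp1, Comp, Thbs4, Postn and Sparc; 129 genes higher and 87 lower in all), 2 with DESeq2 (Sparc and Spp1) and 1 with no plate term (Spp1, adjusted p = 0.0329), against 0; in FB-like CCl4 wells 1 (Postn) was called lower with no filter. The BDL difference between classes had 1 member higher and 1 lower with DESeq2. The Sparcl1 call in VSMC-like BDL wells was lost (0 members) with class by marker score (adjusted p = 0.0606), all wells of the portion whatever their class (0.456), only the plates that hold the injury (0.09) and, in alternatives chosen after seeing the data, without the portions of BDL 1, BDL 2 or CCl4 1. Leaving out 1 portion at a time gave 0 to 1 members there. Its log2 fold change was 1.03 to 1.22 in all 28 fits. Over all genes, the calls were 353 and 228 genes higher and lower with DESeq2 and 103 and 50 without the filter in VSMC-like BDL wells, 17 and 12 without it in FB-like and 16 and 3 in VSMC-like CCl4 wells, and 78 and 110 with DESeq2 for the BDL difference between classes. The cause of these changes was not tested. Estimates of members called in neither fit changed sign in 145 of 1457 alternative values, including Comp. In the 10X data no called fold changed side, and 72 of 78 counts were kept, among them counts of 0. With no minimum CPM, 4 members were called higher at 72 h in HSC-like cells (Thbs4 and Spp1 in addition). In FB-like cells 2 were called lower (Spp1 in addition) and in VSMC-like cells 2 higher (Tnc and Spp1). Thbs3 in 6 weeks HSC-like cells (2.19-fold, 5.77 against 2.63 CPM) was also past 2-fold without the minimum. Each added member was under 10 CPM. The share of all genes called without the minimum was not computed, so these counts are not results about the members. Over the whole protocol 1 libraries, which pool FB-like and VSMC-like cells, 1 member was called lower (Comp, 13.8 to 2.99 CPM), against none in VSMC-like cells alone. With class by marker score (added later) 2 members were called lower in VSMC-like cells. Cells of the upper against the lower quartile gave 2 members 1.5-fold higher in collagen-high HSC-like cells of all 3 libraries. No share of all genes was computed for the whole libraries, the marker score classes or the quartiles. Whether these counts differ from those of all genes is therefore not known.

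No paired analysis by the replicate numbers of the plates was possible, because they follow accession order and tie no sample of one group to a sample of another. This concerns those numbers alone: portions of 1 plate were compared through the plate term, and the classes within a portion with the portion as a block.

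In HSC-like cells depth limited Comp (0 to 1 UMIs a library) and, outside the 72 h library, Thbs4 (3 UMIs in each) and Spp1 (9 and 14 UMIs).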
